A study of Arabidopsis thaliana with 30 samples.

Results

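The comparison was between roots of the Arabidopsis thaliana mutant ahp4 and roots of the wild type, both kept without added cytokinin. It covers 18813 genes of the 33199 features in the deposited table, namely those that reached 1 FPKM in at least 3 of the 8 libraries compared, 4 of each genotype, out of 30 libraries in all. FPKM counts sequenced fragments per length of gene and per depth of library. In the deposited values depth was scaled by a size factor of each library, as given under processing, and not by its read total. The choice used levels and no test of the genotypes, but a gene could pass on the libraries of 1 genotype alone, as 351 did on ahp4 (under 3 Col libraries at 1 FPKM) and 277 on Col.

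Cytokinins are plant hormones that are sensed by histidine kinases (AHKs). The kinases hand a phosphate to histidine phosphotransfer proteins (AHPs), which carry it to response regulators in the nucleus. The type-B regulators switch genes on, and the type-A regulators are among those genes and dampen the signal. AHP4 is a member of the AHP family, and AHP6 lacks the phosphate-accepting residue and inhibits the pathway. In roots cytokinin restrains cell division in the meristem and governs the formation of the vascular tissue.

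The wild type was the accession Columbia (Col, written Col-0 in some labels), and the mutant carried the allele ahp4-2. Seedlings 7 days old were moved from plates to liquid medium for 2 h with 0.1% DMSO alone (mock) or with 100 nM of the cytokinin 6-benzylaminopurine (BA) in the same solvent. They were divided at the hypocotyl into pools of roots and shoots, and the sources used here do not give the number of seedlings in a pool. Both genotypes in the mock groups received the same medium and solvent, and the groups differed in genotype. The BA roots (4 libraries of each genotype) and the shoots (4 Col and 3 ahp4 libraries under each treatment) are used below beside the comparison. The BA roots also shared its fit, and so their spread entered the errors and p-values of the mock roots. The labels do not say whether the libraries of one group come from separate cultures, and p-values therefore express the spread between libraries, which may be technical.

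One ahp4 mock root library, replicate 1, has labels that contradict each other. Its title and description name ahp4 and mock, and its characteristics name Col-0 and BA. The title decided its group here. Its level of ARR5, a type-A response regulator raised by cytokinin, was 21.4 FPKM, against 12.0 to 36.5 FPKM in the other 7 mock root libraries and 140.0 to 203 FPKM in the 8 BA root libraries. The RNA AT4G06835, called below with and without ahp4 replicate 1, stood at 18.0 FPKM in that library. Col mock roots had 0.625 to 1.91 FPKM of it and the other ahp4 mock roots 14.6 to 16.7 FPKM. The AHP4 test and the calls in mock roots are given with and without this ahp4 library. Mean levels, fold changes, list medians and length classes include it.

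The 8 libraries held 9325332 to 12460761 reads, rebuilt from the steps of the FPKM values. Beta-glucosidase PYK10, the leading root marker, ran from 4728 to 8219 FPKM in the 16 root libraries and from 349.5 to 802 FPKM in the shoots. The summed level of the 13 shoot markers was 474, 332, 109 and 134 FPKM in Col mock roots and 135, 402.5, 151 and 141 FPKM in ahp4 mock roots, against at least 57580 FPKM in a shoot library. Col replicates 1 and 2 and ahp4 replicate 2 thus stood above the other 5. Of the shoot markers 12 were tested, 10 of them with a mean log2 difference below 0, with a median log2 difference of -0.19 and none called.

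The targeted gene was read first. AHP4 stood at 1.71, 0.539, 0.901 and 0.879 FPKM in the Col libraries and at 0.350, 0.435, 0.347 and 0.382 FPKM in the ahp4 libraries. The groups did not overlap, and the Col library with the highest level lay well above the other 3. The mean fell from 1.01 ± 0.495 to 0.378 ± 0.0409 FPKM (SD, n = 4 each), a ratio of 0.376, which rests on 53 against 17 rebuilt reads. On log2(FPKM + 1) an exact permutation test, two-sided, gave p = 0.0286, which is the lower limit for groups of 4. With any 1 ahp4 library left out, the one with conflicting labels included, the exact permutation p was 0.0571, and with any 1 Col library left out it was 0.0286. Without the 3 libraries of high shoot marker level it was 0.1, the smallest that 2 against 3 can give. AHP4 overlaps AT3G03295 on the opposite strand, and the sources used here do not state whether counting used strand, which leaves its level uncertain. AHP4 reached 1 FPKM in 1 of the 8 libraries and so did not enter the test across genes. In BA roots its means were 0.379 FPKM in Col and 0.129 FPKM in ahp4, on 19 and 6 rebuilt reads. In shoots they were 5.26 and 1.51 FPKM under mock and 2.23 and 0.533 FPKM under BA. The shoot difference over both treatments was -1.13 ± 0.24 on the log2 scale (SE) and was not called (limma, unadjusted p = 3.65e-04, adjusted p = 0.669).

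Across the 18813 genes, 17 were called, that is, had a Benjamini-Hochberg adjusted p under 0.05 by limma on log2(FPKM + 1) (0.0904% of the genes tested). Of these 15 were higher in ahp4 (0.0797%) and 2 lower (0.0106%). Among the 15 higher, 2 (UMAMIT10 and AT2G27535) had been tested only because of their levels in ahp4. Their calls are no support for a difference, though they stay in the counts of the 17 below. No called gene had been tested only because of its levels in Col. Each of the 17 had no overlap between the 4 ahp4 and the 4 Col libraries, a property that 885 tested genes shared (4.7%). At an unadjusted p under 0.05 there were 1728 genes (9.19%), 1000 higher and 728 lower, and the median log2 difference of all tested genes was 0.020. These are levels in whole roots, so fewer cells of a type and less RNA per cell cannot be told apart. In the 8 compared libraries alone, without the spread of the BA roots, 9 genes were called, 7 of them among the 17. These 7 were AT4G06835, CYP78A8, UMAMIT17, SDH8, AT1G08903, AT1G67148 and AT2G27535, with neither of the 2 lower genes among them. The count moved with single libraries. It was 9 without Col replicate 1, 9 without Col replicate 3, 8 without ahp4 replicate 2, 7 without ahp4 replicate 3, 5 without ahp4 replicate 4, and 13 without ahp4 replicate 1, whose labels conflict, of which 10 were among the 17. After correction of each library for a trend with gene length the split was 13 higher and 5 lower.

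**Figure D1:**
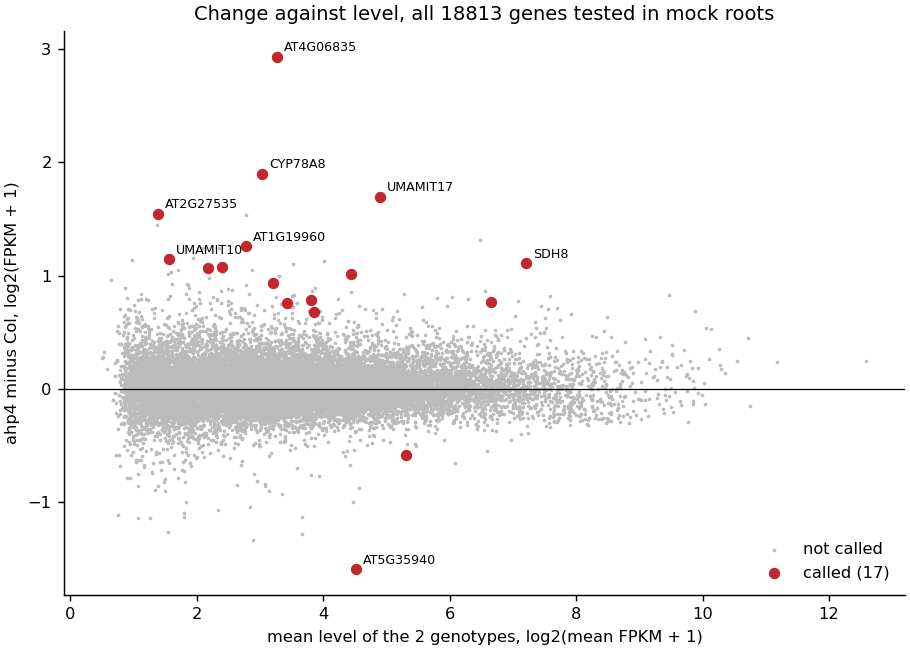
Each point is one of the 18813 genes tested, with the mean level of both genotypes on the x axis (log2 of mean FPKM + 1) and the ahp4 minus Col difference on log2(FPKM + 1) on the y axis. The 17 called genes are in red, 15 above 0 and 2 below, and those beyond 1.1 in either direction are named.

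**Figure D2:**
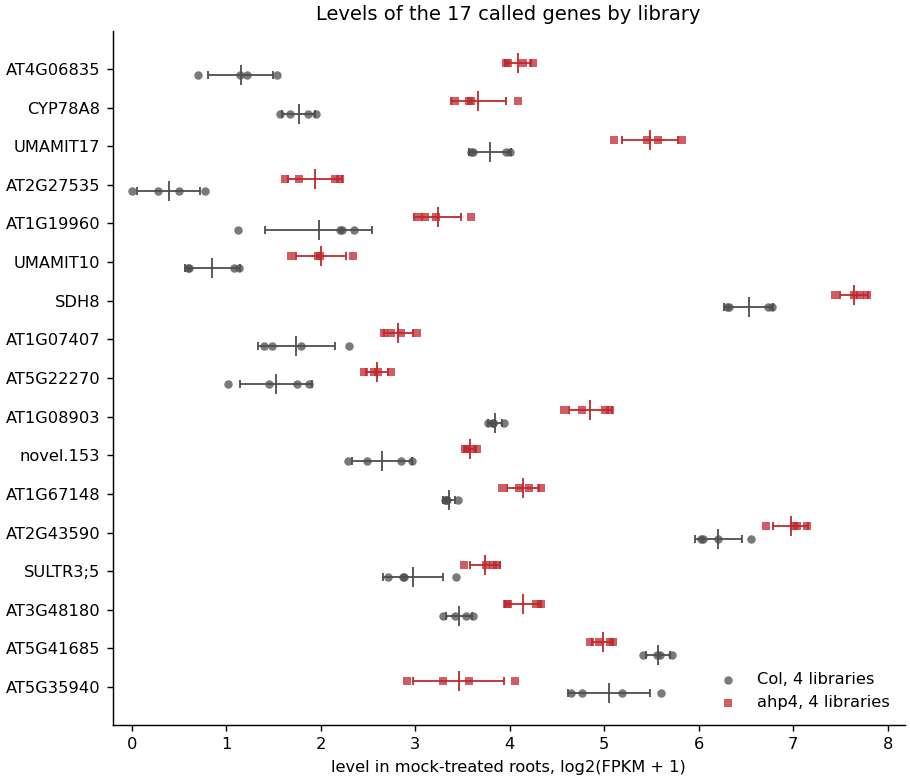
Level of each called gene in mock-treated roots on log2(FPKM + 1), with Col libraries as grey circles and ahp4 libraries as red squares, and the vertical tick and bar giving the mean and SD of the 4 libraries. In none of the 17 genes do the Col and ahp4 libraries overlap.

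Of the genes that rose, 3 encode transport proteins. The share of transport genes among all genes tested was not counted, so these 3 are described as single genes and not as a class. UMAMIT17 belongs to the UMAMIT family, whose members move amino acids across membranes. It stood at 11.2, 11.01, 14.6 and 15.0 FPKM in Col and at 46.3, 33.4, 55.8 and 42.7 FPKM in ahp4. The lowest ahp4 library had over 2 times the level of the highest Col library. The mean rose 3.44-fold, from 13.0 ± 2.14 to 44.5 ± 9.24 FPKM (SD, n = 4 each), or by 1.70 ± 0.17 on the log2(FPKM + 1) scale (SE, limma adjusted p = 1.78e-04). It stayed called in each of the 20 alternative fits.

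A second member, UMAMIT10, was lower in level and less stable as a call. Its Col values were 0.522, 0.515, 1.20 and 1.12 FPKM and its ahp4 values 2.23, 2.99, 2.93 and 4.07 FPKM, on 66 against 214 rebuilt reads. Of the Col libraries 2 reached 1 FPKM, so the gene was tested only because of its levels in ahp4, where it is high. Its place among the calls is no support for a difference. The rise was 3.65-fold (1.15 ± 0.18, limma adjusted p = 0.0193). The call was lost without Col replicate 1 or 2 or ahp4 replicate 2, 3 or 4 (adjusted p up to 0.101).

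The third, SULTR3;5, is a sulfate transporter of the root vasculature that aids the movement of sulfate to the shoot. It stood at 6.40, 5.57, 9.79 and 6.33 FPKM in Col and 12.4, 10.4, 13.5 and 13.2 FPKM in ahp4, with Col replicate 3 close below the ahp4 range. The 1.77-fold rise (0.76 ± 0.14, limma adjusted p = 0.0464) passed narrowly. With 1 library left out the call held in the fit without Col replicate 3 and was lost in the other 7 (adjusted p up to 0.170).

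Among enzyme genes, CYP78A8 rose the most. It encodes a cytochrome P450 of the subfamily that includes KLUH, a promoter of organ growth, and the function of CYP78A8 itself is not described here. Its levels were 2.19, 1.97, 2.65 and 2.87 FPKM in Col and 9.69, 10.9, 16.0 and 11.04 FPKM in ahp4, so the lowest ahp4 library was more than 3 times the highest Col library. The mean rose 4.92-fold, from 2.42 ± 0.413 to 11.9 ± 2.82 FPKM, by 1.90 ± 0.17 on the log2 scale. This was the smallest adjusted p of the comparison (limma, 4.88e-05), and the gene was called in each of the 20 alternative fits.

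AT2G43590, a member of the chitinase family, whose enzymes break down chitin, was abundant in both genotypes. Col libraries had 65.3, 72.8, 63.9 and 93.2 FPKM and ahp4 libraries 103, 140.2, 131 and 127 FPKM, a 1.70-fold difference of the means. The difference of 0.77 ± 0.13 (limma adjusted p = 0.0412) was no longer called without Col replicate 1, 2 or 3 or ahp4 replicate 2, 3 or 4 (adjusted p up to 0.165).

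Both called genes of mitochondrial proteins were short and overlap another gene on the opposite strand, and they moved in opposite directions. SDH8 encodes a small subunit of succinate dehydrogenase, the respiratory complex that oxidizes succinate. It stood at 78.7, 105, 77.8 and 109 FPKM in Col and at 208, 218, 199 and 172 FPKM in ahp4, with a clear gap between the groups. It rose 2.15-fold, from 92.7 ± 16.7 to 199.6 ± 19.8 FPKM (1.11 ± 0.14, limma adjusted p = 0.00248), and was called with any 1 library left out. It overlaps AT2G46380, so reads of the 2 genes may have been mixed.

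AT5G41685 encodes the Tom7 subunit of the complex that lets proteins through the mitochondrial outer membrane. It stood at 41.6, 47.3, 46.0 and 51.8 FPKM in Col and at 29.8, 33.1, 32.4 and 27.9 FPKM in ahp4. The ahp4 libraries were all below the Col libraries, and the spread within each genotype was small. The gene fell by 0.58 ± 0.10 on the log2 scale (limma adjusted p = 0.0281). The call was lost without Col replicate 2, 3 or 4 or ahp4 replicate 1, 3 or 4 (adjusted p up to 0.122). It overlaps AT5G41680 and is uncertain for the same reason as SDH8.

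The other gene that fell was AT5G35940, of the mannose-binding lectin superfamily, whose proteins bind sugars. Its Col levels were 24.1, 47.7, 35.4 and 26.2 FPKM and its ahp4 levels 10.9, 6.56, 8.79 and 15.7 FPKM. The highest ahp4 library stayed well under the lowest Col library, although the Col libraries differed among themselves by about a factor of 2. The mean went from 33.4 ± 10.7 to 10.5 ± 3.89 FPKM, a ratio of 0.314, and fell by 1.59 ± 0.22 on the log2 scale (limma adjusted p = 0.00776). It stayed called with any 1 library left out.

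A further 5 protein genes rose that have no symbol in the annotation. AT2G27535, named there as of the ribosomal protein L10A family, stood at 0.217, 0, 0.716 and 0.419 FPKM in Col, with one library listed at 0, and at 3.61, 3.46, 2.07 and 2.43 FPKM in ahp4. This rests on 11 against 82 rebuilt reads. No Col library reached 1 FPKM, so this gene too was tested only because of its levels in ahp4, and its place among the calls is no support for a difference. The difference of 1.55 ± 0.27 (limma adjusted p = 0.0425) was lost with any 1 of the 8 libraries left out (adjusted p up to 0.133).

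AT1G19960, which the annotation calls a transcription factor, stood at 3.61, 1.19, 3.67 and 4.12 FPKM in Col and 7.21, 8.33, 11.1 and 7.58 FPKM in ahp4. Col replicate 2 was far below the other Col libraries. The gene rose 2.71-fold (1.26 ± 0.22, limma adjusted p = 0.0425) and stayed called without Col replicate 2 or 4 but in none of the other 6 fits with 1 library left out (adjusted p up to 0.159).

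AT5G22270, an uncharacterized protein gene, had 1.04, 2.36, 1.75 and 2.67 FPKM in Col and 4.51, 5.72, 5.09 and 4.92 FPKM in ahp4. The ahp4 libraries lay close together and the Col libraries were spread. The rise of 1.07 ± 0.19 (limma adjusted p = 0.0465) was called without Col replicate 4 and in none of the other 7 fits with 1 library left out (adjusted p up to 0.165).

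AT1G67148 and AT3G48180, named after their values were seen, lie outside the rule for naming genes. AT1G67148, uncharacterized, stood at 9.12, 8.96, 9.05 and 9.93 FPKM in Col and 14.2, 19.2, 16.2 and 17.43 FPKM in ahp4. Its Col libraries agreed closely, and the 1.81-fold rise (0.78 ± 0.11, limma adjusted p = 0.00878) was lost without ahp4 replicate 4 (adjusted p = 0.0582). AT3G48180, which the annotation names as a phosphatidyltransferase of glycerol phosphate, had 8.84, 11.2, 9.73 and 10.6 FPKM in Col and 14.8, 19.2, 18.3 and 14.7 FPKM in ahp4. It rose 1.66-fold (0.68 ± 0.12, limma adjusted p = 0.0425), and the call was lost without Col replicate 1, 3 or 4 or ahp4 replicate 2, 3 or 4 (adjusted p up to 0.159). The chitinase gene above, AT1G08903 and the unannotated model below were likewise named after their values were seen.

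Of the called features 3 were long non-coding RNAs, a class that made up 0.967% of the genes tested. AT4G06835 had the largest change of the comparison. It stood at 1.21, 1.91, 1.33 and 0.625 FPKM in Col and 18.0, 16.7, 14.8 and 14.6 FPKM in ahp4, so each ahp4 library had over 7 times the level of the highest Col library. These levels rest on 18 against 203 rebuilt reads, and the means differed 12.6-fold (2.93 ± 0.29, limma adjusted p = 1.33e-04). It was called in 19 of the 20 alternative fits, the exception being a pseudocount of 0.1 (adjusted p = 0.0642). It overlaps AT4G03005 on the opposite strand, so the gene that the reads came from is uncertain.

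AT1G08903 stood at 13.2, 12.7, 13.1 and 14.4 FPKM in Col and 22.8, 32.4, 26.2 and 31.2 FPKM in ahp4. It rose 2.11-fold (1.01 ± 0.15, limma adjusted p = 0.0122), and the call was lost without ahp4 replicate 2 or 4 (adjusted p up to 0.0738). AT1G07407 had 1.63, 2.46, 1.80 and 3.91 FPKM in Col and 5.69, 5.36, 7.13 and 6.204 FPKM in ahp4, on 35 against 80 rebuilt reads. Its groups did not overlap but were separated mainly by the 3 lower Col libraries. The rise of 1.08 ± 0.19 (limma adjusted p = 0.0425) held without Col replicate 4 and in none of the other 7 fits with 1 library left out (adjusted p up to 0.165). It overlaps AT1G07397 on the opposite strand.

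The last called feature is a transcript model that carries only a running number of the authors and that the annotation used here does not name. It stood at 3.88, 6.24, 4.62 and 6.80 FPKM in Col and 11.6, 10.7, 10.6 and 11.1 FPKM in ahp4. The ahp4 libraries were nearly equal and lay above all Col libraries. It rose 2.04-fold (0.94 ± 0.17, limma adjusted p = 0.0465), and the call held without Col replicate 4 and in none of the other 7 fits with 1 library left out (adjusted p up to 0.165).

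The calls were recomputed without the 3 libraries of high shoot marker level. This left 2 Col and 3 ahp4 libraries, and CYP78A8, UMAMIT17 and AT4G06835 were still called (limma adjusted p = 0.00976 each). SDH8 and AT5G35940 had an adjusted p of 0.0799 each, AT5G41685 of 0.0985, and the other 11 of 0.223 to 0.345. The log2 differences of the 17 were 0.757 to 1.17 times those with all libraries. SDH8 was at 1.06, AT5G35940 at -1.34, AT5G41685 at -0.69 and AT1G67148 at 0.69 on the log2 scale. With the mean shoot marker level as a covariate and all libraries kept, 20 genes were called, 16 of them among the 17.

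With only 2 called genes lower, the naming rule went on to genes that did not pass the test but had the smallest p and no overlap between libraries. AAP3, an amino acid permease that imports amino acids into cells, stood at 24.9, 33.7, 28.4 and 26.9 FPKM in Col and 18.9, 10.5, 12.4 and 14.003 FPKM in ahp4 (-1.002 ± 0.19, limma adjusted p = 0.0604). It overlaps AT1G77370 on the opposite strand. AT1G12010, of the 2-oxoglutarate and iron-dependent oxygenases, stood at 28.3, 28.3, 27.8 and 33.1 FPKM in Col and 17.8, 12.0, 18.0 and 15.1 FPKM in ahp4 (-0.87 ± 0.17, adjusted p = 0.0608). In both genes the highest ahp4 library was clearly under the lowest Col library.

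The zinc finger gene AT5G44260 stood at 3.42, 3.67, 3.36 and 4.99 FPKM in Col and 2.19, 2.14, 2.08 and 2.29 FPKM in ahp4 (-0.60 ± 0.12, limma adjusted p = 0.0608). RPI2, a ribose-5-phosphate isomerase of the pentose phosphate pathway, had a mean of 2.07 ± 0.318 FPKM in Col and 1.06 ± 0.230 FPKM in ahp4 (n = 4 each, adjusted p = 0.0937), and overlaps AT2G01280 and AT2G03925. LPLAT2, a membrane-bound acyltransferase of lipids, had 11.03 ± 1.01 and 8.02 ± 1.13 FPKM (adjusted p = 0.194). The remaining 3 were non-coding, namely the small nucleolar RNAs AT2G08765 (-0.66 ± 0.14) and AT3G47348 (-0.36 ± 0.086) and the long non-coding RNA AT4G07170 (-1.27 ± 0.29), with adjusted p values of 0.100, 0.194 and 0.191. Of these 8 genes 6 were called in some of the alternative fits, namely AT1G12010 in 4 (lowest limma adjusted p = 0.0246), AAP3 in 3 (0.0297), AT5G44260 and AT2G08765 in 2 each (0.0395 and 0.0137), and RPI2 and AT3G47348 in 1 each (0.0412 and 0.0154).

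The means of the 17 genes in BA roots come from other libraries, but the error is the one estimated over all 16 root libraries, which the mock calls also rest on. This fit called 5 genes between ahp4 and Col there (0.0266% of those tested), with 719 at an unadjusted p under 0.05 (3.82%). Of the 17 genes, 4 were among the 5 with the same sign, namely CYP78A8, UMAMIT17, AT4G06835 and AT5G35940. Of the others 9 had the same sign and 4 the opposite one, and 10 of the 17 had the same sign with an unadjusted p under 0.05. Over all tested genes 63.7% had the same sign in both treatments.

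CYP78A8 stood at 4.94, 4.01, 2.95 and 2.96 FPKM in Col BA roots and 11.1, 12.0, 11.9 and 8.13 FPKM in ahp4 BA roots, a 2.90-fold difference (limma adjusted p = 0.00393). UMAMIT17 fell under BA by 1.83 ± 0.17 in Col and by 2.43 ± 0.17 in ahp4 on the log2 scale (limma adjusted p = 2.34e-06 and 1.64e-07). In BA roots it stood at 3.98, 2.93, 2.15 and 2.73 FPKM in Col and 7.39, 6.89, 9.80 and 5.64 FPKM in ahp4, a 2.52-fold difference between genotypes (adjusted p = 0.0355). In neither gene did the groups overlap.

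AT5G35940 stood at 33.9, 37.8, 31.5 and 35.7 FPKM in Col and 16.0, 13.7, 10.06 and 10.03 FPKM in ahp4 under BA (a ratio of 0.358, limma adjusted p = 0.0355). AT4G06835 stood at 1.37, 1.43, 0 and 2.57 FPKM in Col and 10.4, 10.098, 17.5 and 11.1 FPKM in ahp4 (adjusted p = 0.00143). The groups were again apart in both genes.

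The other 13 genes did not pass the test under BA. SDH8 had 122 ± 20.6 FPKM in Col and 142 ± 17.01 FPKM in ahp4 (SD, n = 4 each), a log2 difference of 0.22 ± 0.14 with a 95% interval of -0.081 to 0.52. The Tom7 gene AT5G41685 had 36.1 ± 4.84 and 36.8 ± 2.64 FPKM (0.031 ± 0.10, interval -0.17 to 0.23), and AT1G19960 had 5.48 ± 1.06 and 5.14 ± 0.959 FPKM (-0.076 ± 0.22, interval -0.54 to 0.39). Each of these 3 intervals excludes the mock root value, as do those of CYP78A8 (0.98 to 1.68) and UMAMIT17 (0.72 to 1.46), which were called under BA. This is not particular to them. Among the 17 called genes only AT4G06835 (1.998 to 3.213) and AT5G35940 (-1.908 to -0.958) had an interval that includes the mock root value. The genes were chosen for their difference in mock roots, and the mock value has its own error. The intervals are therefore no test of a change between treatments. SULTR3;5 (0.30 ± 0.14), AT2G43590 (0.44 ± 0.13) and AT3G48180 (0.42 ± 0.12) were higher in ahp4 on average, with unadjusted p values of 0.0443, 0.00378 and 0.00229.

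Whether the genotype difference itself differed between BA and mock was tested in the same fit. No gene was called (0.0%), and 509 had an unadjusted p under 0.05 (2.71%), while a fit of all 30 libraries called 2. All 17 genes had a smaller difference in BA roots, with a median size of 0.383 on the log2 scale against 1.08 in mock roots, and 12 had an unadjusted p under 0.05. The genes were chosen for their difference in mock roots, which is part of this contrast, so these counts are a description. AT1G67148 had the smallest p of the 17 (-0.91 ± 0.16, limma adjusted p = 0.575), followed by AT5G41685 (0.61 ± 0.14) and SDH8 (-0.89 ± 0.20), both with an adjusted p of 0.960.

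In shoots, over both treatments, 1 of 18246 genes was called (0.00548%) and 911 had an unadjusted p under 0.05 (4.99%). The called gene was AT4G06835. It stood at 0.436, 0.473, 0 and 0.915 FPKM in Col and 18.0, 20.9 and 36.8 FPKM in ahp4 under mock, and at 0.446, 0.883, 0 and 0 FPKM in Col and 21.1, 22.3 and 24.3 FPKM in ahp4 under BA. The mean difference was 4.17 ± 0.19 on the log2 scale (limma adjusted p = 5.78e-08). No Col shoot library reached 1 FPKM, so this RNA was tested in shoots only because of its levels in ahp4. Its place among the calls there is no support for a difference. By level, the ahp4 libraries lay above the Col libraries in each organ and treatment sampled.

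Of the 17 genes 11 were tested in shoots, 7 of them with the sign they had in roots. For shoots the share with the same sign over all genes was not counted. Of the 11, 1 had an unadjusted limma p under 0.05 in shoots. UMAMIT17 (0.31 ± 0.24, interval -0.21 to 0.83), SDH8 (0.071 ± 0.15, interval -0.24 to 0.38) and SULTR3;5 (0.073 ± 0.10, interval -0.15 to 0.29) did not pass the test there. CYP78A8 was too low in shoots to be tested, at 0.263, 0, 0.171 and 0.345 FPKM in Col and 0.430, 1.12 and 0.0721 FPKM in ahp4 under mock. AT1G67148 was listed at 0 in all shoot libraries. The difference between roots and shoots was not tested.

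**Figure D3:**
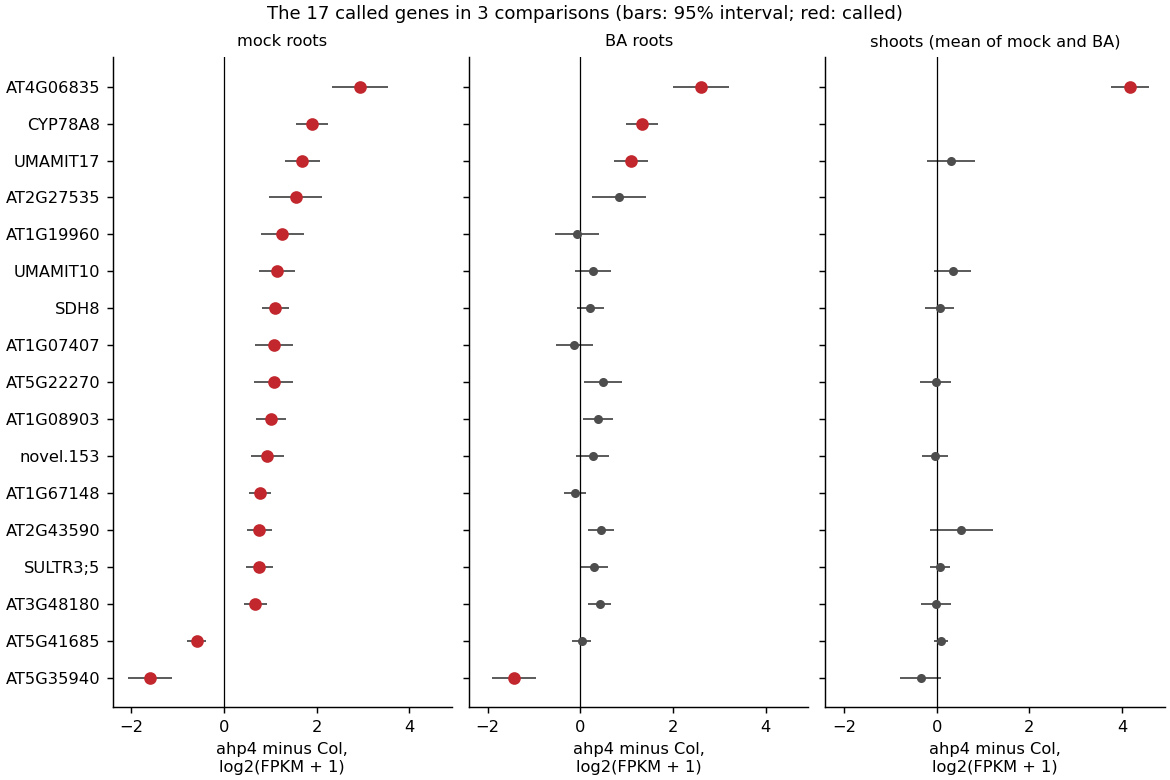
Difference of ahp4 from Col on log2(FPKM + 1) for the 17 called genes, with 95% intervals, in mock roots, in BA roots and in shoots over both treatments, with called differences in red. In BA roots 4 of the genes are red and in shoots 1, and 6 genes have no point in shoots because they were too low to be tested. The gene in red in shoots, AT4G06835, was tested there only because of its levels in ahp4.

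The cytokinin pathway was then followed from receptor to target, in lists of which no member was called. Among the receptors, AHK2, AHK3 and AHK4 differed by 0.12 ± 0.13, 0.25 ± 0.16 and 0.20 ± 0.10 on the log2 scale. AHK4 stood at 15.9, 18.7, 15.1 and 13.5 FPKM in Col and 16.0, 20.1, 19.5 and 17.1 FPKM in ahp4, with overlapping groups.

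Of the phosphotransfer proteins apart from AHP4, AHP1 is the most abundant in these roots per length. It stood at 72.4, 94.04, 93.0 and 83.8 FPKM in Col and 104, 118, 94.5 and 89.0 FPKM in ahp4 (0.24 ± 0.11, unadjusted p = 0.0404, limma adjusted p = 0.531). AHP2 (35.0 ± 6.51 and 34.0 ± 2.56 FPKM), AHP3 (28.3 ± 3.91 and 27.7 ± 2.48 FPKM) and AHP5 (12.1 ± 1.47 and 12.8 ± 0.787 FPKM, SD, n = 4) differed by -0.027, -0.024 and 0.073 on the log2 scale. Their 95% intervals were -0.30 to 0.24, -0.23 to 0.18 and -0.17 to 0.32. The inhibitor AHP6 stood at 2.20, 2.39, 3.14 and 3.01 FPKM in Col and 1.66, 0.827, 2.64 and 0.997 FPKM in ahp4. Its ahp4 libraries were below all Col libraries except for replicate 3, which lay within their range (-0.59 ± 0.21, unadjusted p = 0.0136, adjusted p = 0.454).

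The type-B regulators, which activate transcription, had 5 of 7 members tested, with a median log2 difference of 0.095 and differences of -0.10 (ARR12) to 0.24 (ARR11). The type-A regulators, early targets of cytokinin, had 8 of 10 members tested, each with a mean log2 difference above 0 and a median of 0.14, beside 0.020 over all genes. With quantile normalization 7 of them and with scaling by read totals 6 of them were above 0, at medians of 0.11 and 0.096, beside -0.0082 and -0.016 over all genes. By mean FPKM, ARR3 (10.4 in Col and 9.63 in ahp4) and ARR9 (20.6 and 20.5) were not higher in ahp4. For each of the 8 genes Col replicate 1 was the lowest Col library. ARR3 stood at 2.05, 16.3, 7.63 and 15.8 FPKM in Col, and ARR7 at 11.7, 29.5, 20.5 and 20.6 FPKM. Whether the shift of the list above 0 rests on that library was not tested. ARR16 alone had an unadjusted p under 0.05. It stood at 0.493, 0.649, 0.882 and 1.31 FPKM in Col and 1.15, 2.16, 1.14 and 1.29 FPKM in ahp4, with overlapping groups (0.41 ± 0.17, limma adjusted p = 0.490). ARR5 had 25.0 ± 8.88 and 25.4 ± 9.96 FPKM (SD, n = 4 each), with Col libraries from 12.0 to 31.7 FPKM and ahp4 libraries from 13.7 to 36.5 FPKM, and the 95% interval of its log2 difference was -0.54 to 0.59.

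The enzymes that make and break down cytokinin did not pass the test either. In synthesis and activation 12 of 15 genes were tested, 8 with a mean log2 difference below 0, and IPT9, which modifies transfer RNA, had 7.28 ± 0.382 and 6.04 ± 0.931 FPKM (-0.24 ± 0.11, limma adjusted p = 0.539). In breakdown and conjugation 8 of 11 were tested, 6 with a mean log2 difference above 0, and UGT85A1, a glucosyltransferase acting on the cytokinin zeatin, stood at 5.22, 6.45, 6.37 and 8.15 FPKM in Col and 4.22, 4.72, 3.82 and 5.48 FPKM in ahp4 (-0.44 ± 0.15, adjusted p = 0.426). Of the cytokinin response factors, transcription factors of the pathway's side branch, CRF4 had the smallest p of the 7 cytokinin lists. It stood at 8.80, 8.63, 8.96 and 9.02 FPKM in Col and 7.39, 5.73, 6.38 and 7.08 FPKM in ahp4, without overlap (-0.37 ± 0.088, unadjusted p = 6.07e-04, limma adjusted p = 0.194). CRF4 overlaps AT4G07925 on the opposite strand and is uncertain.

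**Figure D4:**
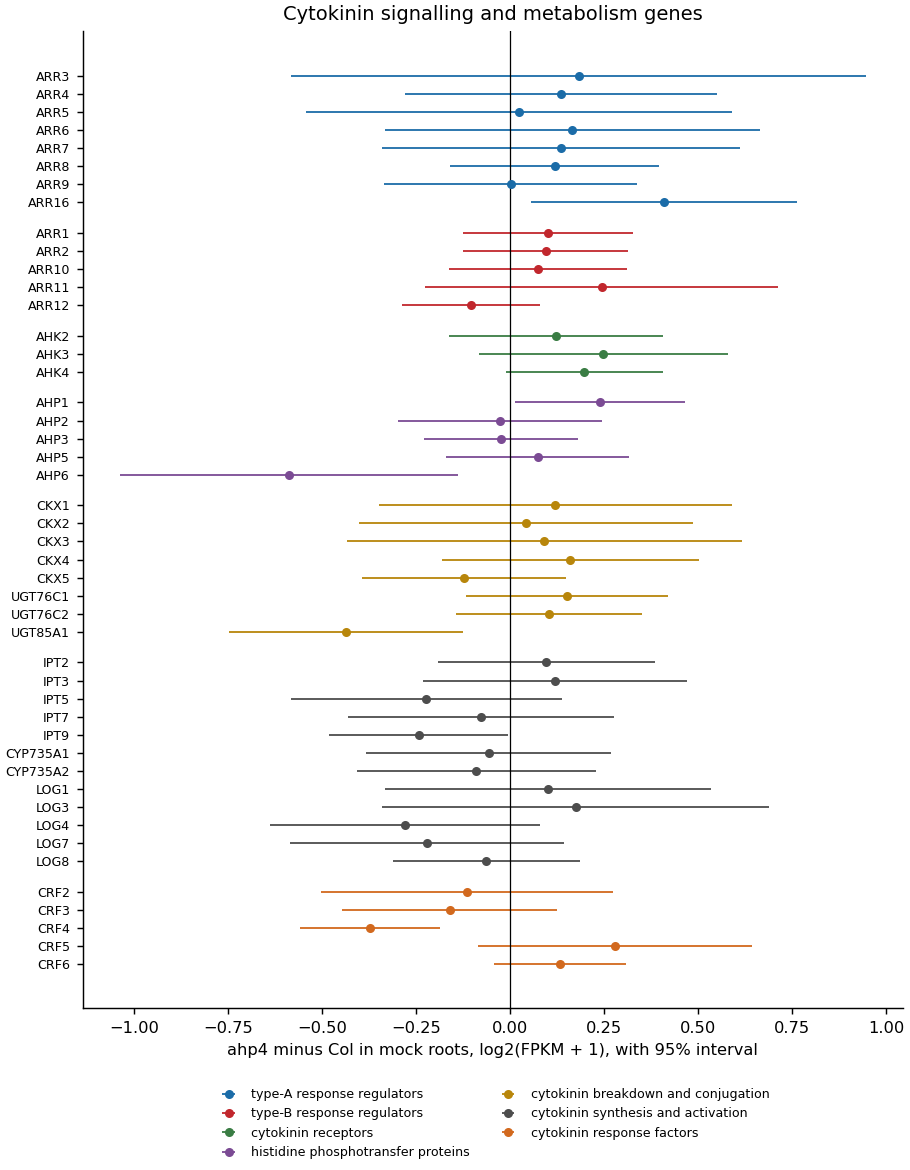
Difference of ahp4 from Col in mock roots on log2(FPKM + 1), with 95% intervals, for each tested gene of the 7 cytokinin lists, coloured by list. The 8 type-A response regulators all lie above 0, which holds for 7 with quantile normalization and 6 with scaling by read totals. For each of the 8, Col replicate 1 was the lowest Col library. Their intervals, except for that of ARR16, include 0. AHP6, UGT85A1, IPT9 and CRF4 have intervals below 0 before adjustment.

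None of the 28 lists held a called gene, and their median log2 differences ran from -0.19 (shoot markers) to 0.45 (root triterpenes). Over all 18813 tested genes 10339 had a difference above 0. In BA roots the medians were 0.15 for nutrient, 0.078 for endodermal barrier and suberin, 0.14 for root triterpene and 0.26 for abscisic acid genes. There the root meristem, cell cycle and touch, wounding and cold lists had medians of -0.025, -0.090 and 0.25. Among the nutrient genes 12 of 16 were tested, 11 with a mean log2 difference above 0 and a median of 0.33, and 4 had an unadjusted p under 0.05, all higher. These were the nitrate reductase NIA1, the nitrate transporter NRT1.1, the potassium transporter HAK5 and the sulfate transporter SULTR1;2, at 0.68, 0.62, 0.69 and 0.43 on the log2 scale. NIA1 stood at 9.59, 8.33, 14.1 and 11.5 FPKM in Col and 17.7, 14.3, 16.8 and 23.5 FPKM in ahp4, without overlap (limma adjusted p = 0.320).

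The endodermal barrier and suberin genes had 13 of 15 tested, 12 with a mean log2 difference above 0 and a median of 0.38. CYP86A1, a hydroxylase of fatty acids in suberin synthesis, stood at 71.5, 79.2, 94.5 and 89.3 FPKM in Col and 81.0, 162, 113 and 103 FPKM in ahp4, where ahp4 replicate 2 was the highest and replicate 1 lay among the Col libraries. The root triterpene genes had all 6 tested, with a median of 0.45. THAS, which makes the triterpene thalianol, stood at 62.4, 133, 91.5 and 91.2 FPKM in Col and 91.6, 146, 133 and 146 FPKM in ahp4, with overlap.

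In the abscisic acid and drying list 10 of 11 tested genes had a mean log2 difference above 0, with a median of 0.20. Its member KIN1, induced by cold and abscisic acid, stood at 46.0, 82.2, 48.1 and 52.4 FPKM in Col and 107, 92.7, 91.5 and 98.6 FPKM in ahp4 (limma adjusted p = 0.292). The jasmonate list was split evenly around 0, at a median of 0.043, and held the vegetative storage protein genes VSP1 and VSP2. VSP1 stood at 31.2, 43.9, 42.4 and 37.1 FPKM in Col and 52.1, 50.5, 63.2 and 68.1 FPKM in ahp4, without overlap (0.59 ± 0.13), and its adjusted p of 0.118 was the smallest of any list member.

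With quantile normalization and scaling by read totals 9 and 8 of the abscisic acid genes were above 0. The lists below the median of all genes included the root meristem genes (9 of 12 below 0, and 11 with either scaling, median -0.077), the cell cycle genes (10 of 12, median -0.13) and the genes of touch, wounding and cold (10 of 13, median -0.14). SHR, a transcription factor that patterns the root's ground tissue, stood at 12.7, 16.8, 15.6 and 14.6 FPKM in Col and 12.4, 10.9, 12.6 and 11.4 FPKM in ahp4, without overlap (-0.31 ± 0.10, limma adjusted p = 0.404). TCH3, a calmodulin-like gene induced by touch, stood at 28.5, 19.9, 20.6 and 25.1 FPKM in Col and 19.2, 17.5, 13.4 and 13.1 FPKM in ahp4 (-0.55 ± 0.15, adjusted p = 0.299) and overlaps 2 genes on the opposite strand. CYCD3;1, a cyclin that promotes entry into division, had 7.90 ± 1.02 and 9.93 ± 1.21 FPKM and went against its list (0.30 ± 0.14). It overlaps AT4G34150.

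The remaining lists had medians between -0.11 (iron) and 0.28 (low oxygen). The auxin list had 26 of 29 genes tested and a median of 0.022 (-0.0037 with quantile normalization and -0.017 with scaling by read totals), with the auxin exporter gene PIN4 at 6.86, 8.55, 6.50 and 6.90 FPKM in Col and 6.36, 5.87, 5.51 and 6.27 FPKM in ahp4 (-0.22 ± 0.10, limma adjusted p = 0.529). In the xylem and secondary wall list 17 of 21 tested genes had a mean log2 difference above 0 with a median of 0.12, and none had an unadjusted p under 0.05. The heat shock gene HSP18.2 stood at 2.75, 4.05, 2.88 and 2.87 FPKM in Col and 6.04, 7.01, 4.75 and 6.59 FPKM in ahp4 (adjusted p = 0.299). Of the reference genes, UBQ10 stood at 834, 801, 827 and 789.8 FPKM in Col and 897, 1076, 943 and 938 FPKM in ahp4, without overlap (0.24 ± 0.10, adjusted p = 0.494), and the other 6 differed by -0.13 to 0.18 on the log2 scale.

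The 10 tested genes next to AHP4 on its chromosome, 5 on each side in the order of the TAIR10.1 annotation, differed by -0.19 to 0.35 on the log2 scale. None was called, and the smallest adjusted p was 0.514, of NSP1, a gene of glucosinolate breakdown. ABCG29, which carries lignin precursors out of the cell, had 30.4 ± 4.30 and 35.5 ± 2.97 FPKM (0.22 ± 0.10, limma adjusted p = 0.541). The 17 called genes were spread over the 5 chromosomes, with 5, 3, 2, 2 and 4 on chromosomes 1 to 5 and the unannotated model not placed.

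The called genes were shorter than the tested genes as a whole. Of the 17, 9 were under 700 bases, as were 5.46% of the genes tested, and their median length was 608 bases against 1750. Of the called genes 4 overlap another gene, as did 29.6% of those tested. The libraries also differed by gene length. In the shortest 10% of the genes (up to 863 bases) the median difference from the Col mean was -0.14, -0.026, -0.034 and 0.20 on the log2 scale in the Col libraries and 0.11, 0.10, 0.085 and 0.059 in the ahp4 libraries.

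In the longest 10% (from 3187 bases) it was 0.16, 0.12, -0.018 and -0.26 in Col and 0.030, 0.12, 0.077 and 0.11 in ahp4. Col replicates 1 and 4 thus went opposite ways along gene length, and in both of these classes the ahp4 libraries lay between them. The group medians of ahp4 minus Col were 0.073 in the shortest and 0.083 in the longest class. With each library's trend with length removed, 18 genes were called, 14 of them among the 17, and the log2 differences of the 17 were 0.842 to 1.18 times those without the correction. AT1G07407, SULTR3;5 and AT3G48180 were no longer called, at 0.92, 0.75 and 0.58 on the log2 scale (limma adjusted p = 0.0903, 0.0562 and 0.0759).

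**Figure D5:**
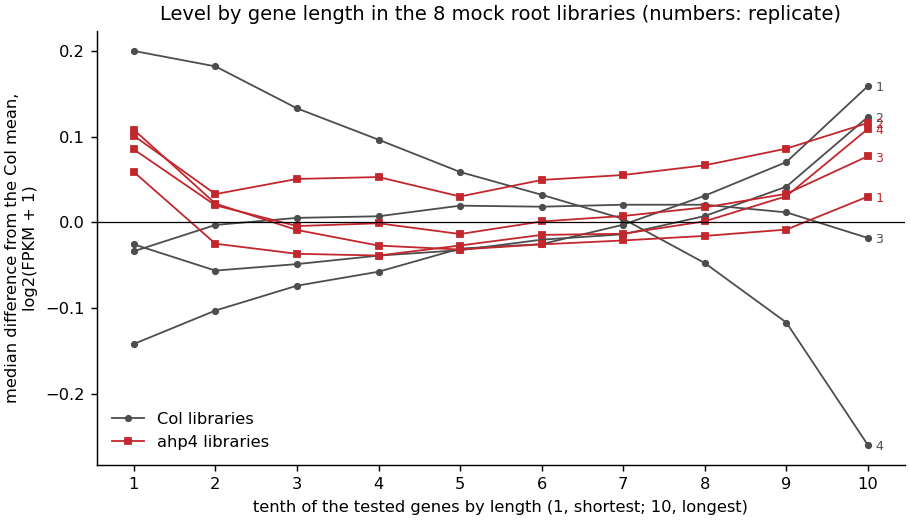
Median difference of each mock root library from the Col mean, on log2(FPKM + 1), over 10 equal classes of the 18813 tested genes by length, with Col in grey, ahp4 in red and the replicate number at the right end. Col replicates 1 and 4 cross, at -0.14 and 0.20 in the shortest class and at 0.16 and -0.26 in the longest, and the ahp4 libraries stay between -0.039 and 0.12.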

How the data were processed

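RNA was sequenced from roots and shoots in 30 libraries. The deposited table gives FPKM values per feature and library, made by the authors. Per the submitters' processing notes the build was TAIR10. Aligner, read counter and strand setting are unknown, being not given in the sources used here. Polyadenylated RNA was copied from random hexamers, per the labels' protocols. Whole reads could be rebuilt from the steps of the FPKM values for 100% of the 26893 features above 0 (tolerance 0.01 reads), and the scale equalled median-of-ratios size factors (largest relative deviation 4.8e-10). Of 33199 features, 32548 gene codes matched the TAIR10.1 annotation, which was used for names, lengths, overlaps and gene order only.

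Groups came from the sample titles. The 16 root libraries (4 groups) shared 1 fit on log2(FPKM + 1), made in R 4.3.3 by limma 3.58.1 with its trend option and no replicate block, and the 14 shoot libraries another. Fold changes on this scale understate the change of low genes. A gene was called at a p under 0.05 after Benjamini-Hochberg adjustment over all genes tested. Ratios and SDs are of FPKM, errors of log2 differences are SE, and intervals are 95%. AHP4 was compared by an exact permutation test. The fit was checked on simulated data.

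The gene lists, 28 with 328 genes, and the tests were chosen with earlier results of these data known. Named genes were the 6 AHPs, the 10 highest and 10 lowest log2 changes among called genes with a symbol, at least 1 FPKM on average in the higher genotype and libraries that did not overlap, filled with called genes without a symbol and then with uncalled genes by smallest p, from each list up to 4 called members, else that of smallest p, and 5 tested genes on each side of AHP4. Named genes that are given without values in the text are given by range or count. Alternatives were another pseudocount, filter, scaling, set of libraries, a replicate block, a shoot marker covariate and each library left out. A gene length correction, limma voom on the rebuilt reads and the fit without 3 libraries were added after the data were seen. Figures used python 3.11.15, numpy 2.4.6, pandas 2.3.3 and matplotlib 3.10.9.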

Additional observations from a re-analysis of the deposited data

Results flagged for a closer look

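In 11 of 168 groups of 4 libraries, 1 library stood apart from the other 3 by Dixon's criterion at the 95% level, a rate near the 1 in 20 that chance gives. In Col mock roots these were AT1G67148 at 9.93 FPKM, AT1G12010 at 33.1 FPKM and HSP18.2 at 4.05 FPKM, each above the other 3 libraries. In ahp4 mock roots they were ARR16 at 2.16 FPKM and the shoot marker LHCB1.1 at 3.98 FPKM, both high and both in replicate 2, and CDC27a, low at 3.35 FPKM in replicate 1. In BA roots AT2G27535 was high in 1 Col library, at 2.30 FPKM. The ahp4 BA roots had 1 high library for AT4G06835 (17.5 FPKM), UMAMIT10 (3.67 FPKM), SULTR3;5 (18.6 FPKM) and AT5G41685 (40.7 FPKM).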

How the results depend on the processing

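The 17 calls (15 higher, 2 lower) were 10 (8 and 2) with a pseudocount of 0.1 and 10 (8 and 2) without a filter, 29 (23 and 6) with quantile normalization, 9 (8 and 1) in the 8 compared libraries alone, 8 (7 and 1) by limma voom on rebuilt reads, 11 with a log2 change of 1 or more (1 lower), and 3 (3 and 0) without the 3 libraries of high shoot marker level. They were 15 at FPKM of 5 or more, 16 with scaling by read totals and 20 with all 30 libraries in 1 fit. Lower calls were 4 with the shoot marker covariate and 5 with the length correction. With 1 library left out they were 5 to 15 (4 to 14 higher, 1 to 3 lower). All 17 were among the 29, 9 and 7 of them among the calls without a filter and by voom, and the causes were not tested. With a replicate block there were 24 calls (19 higher, 5 lower), 15 of them among the 17. In mock roots same-numbered deviations correlated at -0.041, 0.12, 0.089 and -0.0072, and those of other pairs at -0.25 to 0.18. The labels only number the samples, so whether the numbers pair libraries is unknown. The 5 calls in BA roots were 2 with a pseudocount of 0.1, 3 without a filter, 3 with quantile normalization, 3 with the replicate block and 3 with the length correction, and 2 to 5 with 1 library left out. Calls shared by mock and BA roots were 2 of 4 in each of these settings and 2 to 4 with 1 library left out. The difference between treatments had 2 calls with all 30 libraries in 1 fit. In shoots the count was 1 in each setting run. The AHP4 difference was -0.63 to -0.36 with 1 library left out (exact permutation p 0.0286 to 0.0571) and -0.48 without the 3 libraries (exact permutation p = 0.1).

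Of 1305 single gene values under these settings 11 changed sign, all of genes that were not called, 127 lost a call and 13 gained one. With 1 library left out AHP2 ran from -0.12 to 0.086, AHP3 from -0.071 to 0.065, AT3G16370 from -0.12 to 0.046 and NSP4 from -0.096 to 0.12. NSP4 was at -0.042 without the 3 libraries of high shoot marker level and GI at -0.0017 with the length correction. A level under 1 FPKM rests on few reads, as for AHP4, and differences there were limited by depth.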
